A study of Homo sapiens with 6 samples.

Results

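The genes described here are those that build the MHC class I molecule and load it with peptide. They are the heavy chains HLA-B, HLA-C, HLA-E and HLA-F, the light chain gene B2M, the peptide transporter genes TAP1 and TAP2, the tapasin gene TAPBP, and NLRC5, a regulator of class I transcription. They were listed by name, with no threshold on a measured value but with earlier results of these data known, and all 9 were found among the 34869 genes of the deposited table. RNA was sequenced from NCI-H295R, an established line of human adrenocortical carcinoma cells that makes steroid hormones. The 3 shTPD52 libraries came from cells transduced with lentivirus for a short hairpin RNA (shRNA) against TPD52, and the 3 shCtrl libraries from cells given a non-targeting shRNA in the same type of vector. All 6 libraries therefore came from the same line, grown in serum with insulin, transferrin and selenium and carrying a lentiviral insert. How many hairpin sequences against TPD52 were used, and whether the libraries of a group came from separate cultures, is not given in the sources used here, so a p-value here speaks of the scatter among these libraries, part of which may be technical.

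MHC class I molecules are carried by nearly all nucleated cells, those of the adrenal cortex included, and present short peptides to CD8 T cells. The proteasome cuts proteins into peptides, the TAP1 and TAP2 transporter moves them into the endoplasmic reticulum, and tapasin holds the empty heavy chain and B2M dimer next to the transporter while calreticulin and the disulfide isomerase PDIA3 assist. HLA-B and HLA-C are classical, highly polymorphic heavy chains, HLA-E is read by NKG2 receptors of natural killer cells, and HLA-F is a nonclassical heavy chain. Interferons induce most of these genes, and NLRC5 raises class I transcription by joining a factor complex on the promoters of the heavy chains and B2M.

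Values are FPKM, sequencing signal scaled to gene length and library size, as the authors deposited them. Depth recovered from the values ran from 29544341 to 38396624 reads per library. TPD52 itself was listed at 0.630, 0.635 and 0.655 FPKM in the shTPD52 libraries, against 1.42, 1.18 and 1.29 FPKM in the shCtrl libraries, a ratio of means of 0.493 (log2 fold change -0.65, limma adjusted p 0.0218). Each shTPD52 library lay below each shCtrl library, and the call held without shTPD52 replicate 2 and was lost on leaving out each of the others (adjusted p 0.0541 to 0.0996). It was also lost with no filter on low genes (0.0670), with a filter of 5 FPKM (0.0616) and after correction for gene length and GC content (0.0822), and it passed in 9 of 17 other processings. All 8 adrenocortical markers reached a mean of 1 FPKM, while 0 of 7 leukocyte markers in the table did. The summed leukocyte markers lay between 0.512 and 1.25 FPKM in shTPD52 and between 0.379 and 0.429 FPKM in shCtrl, and PTPRC, which marks all leukocytes, was at most 0.00636 FPKM. Mitochondrially encoded genes took 22.4%, 19.5% and 24.2% of the reads in shTPD52, against 18.4%, 17.4% and 17.6% in shCtrl. The library shTPD52 replicate 2 stood apart from its group. Its score on the first principal component, which held 61.0% of the variance, was 0.29, against 27.3 and 35.3 for the other two shTPD52 libraries and between -24.1 and -16.4 for shCtrl.

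The stretches below, taken upstream of RefSeq starts, show matches to fixed letters of elements through which such genes are known to be induced. RefSeq promoter windows of 250 bases before the start, on GRCh38.p14, were found for 7 of the 9 genes. Capitals mark matches, on either strand, to the interferon-stimulated response element (GAAA, any 2 bases, GAAA), the kappaB letters (GGGA, any 3 bases, CCC), the Y box CCAAT, and the CRE-like letters TGACGC or TGACGT. B2M (chr15:44711267-44711486, plus strand), TAPBP (chr6:33314079-33314105, minus strand) and TAP1 (chr6:32853816-32853845, minus strand, from the second of its windows) are shown because each holds overlapping matches to the interferon element. HLA-C (chr6:31272131-31272342, minus strand) is shown beside them as a heavy chain without a match to these fixed letters. Stretches were kept short where the annotation has an exon of any gene in the window.
B2M: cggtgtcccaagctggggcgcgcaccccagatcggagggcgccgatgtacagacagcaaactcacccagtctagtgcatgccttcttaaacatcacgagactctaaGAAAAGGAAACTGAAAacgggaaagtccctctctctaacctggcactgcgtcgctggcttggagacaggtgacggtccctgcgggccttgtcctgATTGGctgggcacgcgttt
TAPBP: tttggagGAAAGTGAAAGTGAAAggag
TAP1: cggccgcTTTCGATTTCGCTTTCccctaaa
HLA-C: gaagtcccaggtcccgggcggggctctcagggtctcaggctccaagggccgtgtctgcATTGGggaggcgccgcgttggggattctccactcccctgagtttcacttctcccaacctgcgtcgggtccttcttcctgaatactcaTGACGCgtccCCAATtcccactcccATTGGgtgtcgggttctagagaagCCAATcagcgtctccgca

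The overlapping interferon elements lay between bases 144 and 129 before the RefSeq start in B2M and between bases 20 and 5 in TAPBP. In the TAP1 window they lay between bases 134 and 119. TAP2 and HLA-F each held a single match, at bases 58 to 49 and 156 to 147 before the start. Neither HLA-B nor HLA-C held a match to these fixed letters, while 3.02% of all 35116 promoter windows of this length did. The letters are a strict form, so a window without a match may still hold an interferon element of another form. HLA-B and HLA-C held 3 and 4 Y boxes and a CRE-like match each. Y boxes also stood in HLA-F (2), B2M (1) and the second TAP1 window (1), and a CRE-like match in TAP2. The fixed kappaB letters stood in HLA-B alone of the 7 genes with a window. Looser forms of that site were not searched. Y box letters stood in 32% of all windows, CRE-like letters in 14% and kappaB letters in 6.73%. Among the proteasome genes described further on, PSMB10 and PSME2 held a single match to the interferon element within their windows and PSMB8, PSMB9 and PSME1 none. The interferon elements of the TAP1 window lie between the RefSeq starts of TAP1 and PSMB9, outside the PSMB9 window. The gene positions given here come from GENCODE, whose starts differ from those of RefSeq. The GENCODE spans of TAPBP, TAP1, HLA-F, PSMB10 and PSME2 begin further upstream, so their interferon matches lie inside these spans. Annotated exons of any gene cover all 250 bases of the TAPBP window and of the second TAP1 window. A match of letters describes the window and is not evidence of binding.

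B2M and TAPBP rose in shTPD52 cells, with ratios of means of 1.24 and 1.25, while the 4 heavy chains, both transporter genes and NLRC5 did not pass the test. In bulk RNA of this kind a change in the share of cells that express a gene and a change in its RNA per cell cannot be told apart. B2M, the light chain shared by all class I molecules, averaged 247 ± 15.3 FPKM in shTPD52 and 199 ± 9.82 FPKM in shCtrl (SD, n = 3 each). TAPBP, which encodes the chaperone that edits the bound peptide, averaged 38.5 ± 1.91 FPKM in shTPD52 and 30.8 ± 1.17 FPKM in shCtrl (SD, n = 3 each). Of the 8 genes tested, 2 passed as higher and 0 as lower, where among all 12782 tested genes 18.3% passed, 5.63% as higher and 12.7% as lower. The median log2 fold change was 0.08 over the 8 genes and -0.11 over all tested genes. Fold changes are shTPD52 minus shCtrl on the log2(FPKM + 0.5) scale, which understates the change of low genes, and a gene passed at an adjusted p below 0.05 in limma with Benjamini-Hochberg adjustment over all tested genes.

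**Figure D1:**
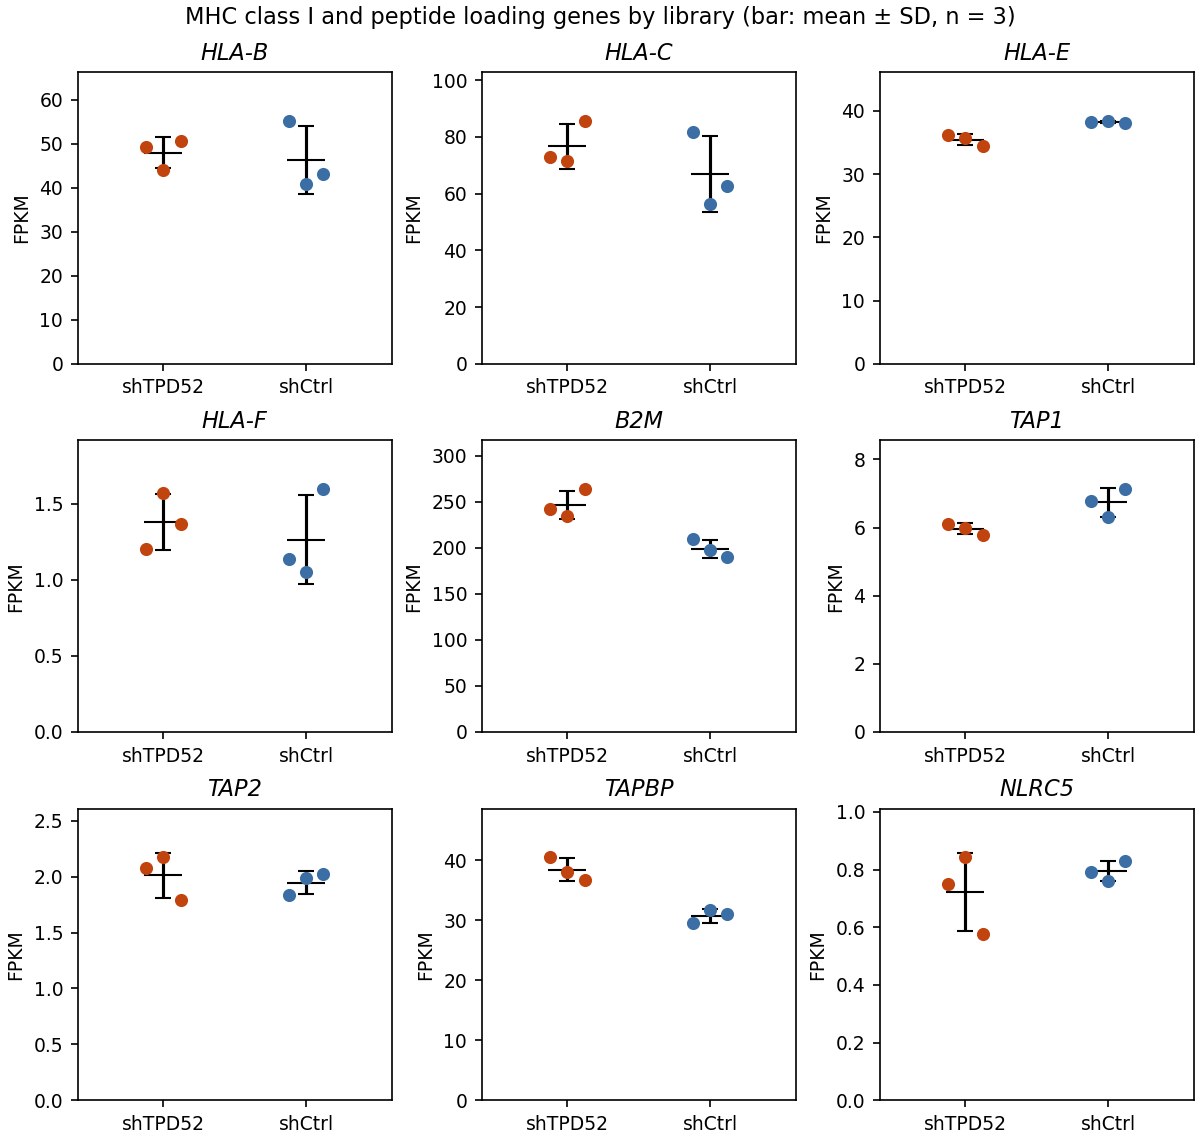
FPKM (vertical axes, each from 0) of the 9 genes in the 3 shTPD52 (left, orange) and 3 shCtrl (right, blue) libraries, in replicate order, with mean ± SD. The groups lie apart in B2M and TAPBP, with shTPD52 higher, and in HLA-E and TAP1, with shTPD52 lower. In the other 5 genes they overlap. Among all tested genes 13.8% lie apart with shTPD52 higher and 28.3% with shTPD52 lower.

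Among the heavy chains, HLA-C was the most abundant. HLA-C (GRCh38 chr6:31268749-31272130) stood at 72.8, 71.5 and 85.7 FPKM in shTPD52, against 81.9, 56.3 and 62.8 FPKM in shCtrl. The groups overlapped, since the highest shCtrl library exceeded the lower shTPD52 libraries. Its log2 fold change was 0.21 (SE 0.14, 95% interval -0.12 to 0.54), with a limma adjusted p of 0.314.

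HLA-B (chr6:31269491-31357188) showed the same pattern between libraries at a lower level. It stood at 49.3, 44.0 and 50.7 FPKM in shTPD52, against 55.2, 40.9 and 43.1 FPKM in shCtrl. As for HLA-C, the first shCtrl library was above, and the second below, every other library of its group, and the groups overlapped. Its log2 fold change was 0.06 (SE 0.12, 95% interval -0.23 to 0.34), with a limma adjusted p of 0.751. Without shCtrl replicate 2 the sign turned, to -0.03. Exons of other genes, mainly an opposite-strand gene, cover 18.9% of its exon bases, so its level is uncertain.

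HLA-E, the ligand of NKG2A, was the steadiest heavy chain. HLA-E (chr6:30489467-30494205) stood at 36.2, 35.7 and 34.4 FPKM in shTPD52, against 38.3, 38.4 and 38.0 FPKM in shCtrl. Every shTPD52 library lay below every shCtrl library, as in 28.3% of all tested genes. The log2 fold change of -0.11 (SE 0.068, 95% interval -0.27 to 0.05) equals the median of all genes to the second decimal, its limma adjusted p was 0.272, and it became 0.01 under median-ratio scaling.

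HLA-F (chr6:29722775-29738528) was read at a low level. It stood at 1.20, 1.57 and 1.36 FPKM in shTPD52, against 1.14, 1.05 and 1.596 FPKM in shCtrl, from 139 to 254 reads per library. The groups overlapped, and the log2 fold change was 0.10 (SE 0.16, 95% interval -0.28 to 0.48) with a limma adjusted p of 0.676. Exons of other genes on the opposite strand cover 28.5% of its exon bases, and the strand setting of the counting is not given, so part of these reads may belong to them.

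The heavy chain genes resemble each other, and whether reads were exchanged among them was not tested. Over their longest annotated coding sequences HLA-B and HLA-C were identical at 92.4% of aligned bases, HLA-B and HLA-E at 86.2%, and the least alike, HLA-E and HLA-F, at 82.0%. The line's own HLA alleles were not analysed here, and how reads matching several genes were counted is not given in the sources used here. The sum over the 4 genes depends less on such an exchange than each gene does. It was 159.5, 152.9 and 172.1 FPKM in shTPD52, against 176.6, 136.7 and 145.5 FPKM in shCtrl, and the ratio of means was 1.06 (two-sided exact permutation p = 0.6, and 0.6 after Benjamini-Hochberg adjustment over the 3 sums and ratios given here). The highest and the lowest sum were both shCtrl libraries.

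B2M was the most abundant of the 9 genes and lies outside the MHC, on chr15:44711487-44718877. It stood at 242, 234 and 264 FPKM in shTPD52, against 209, 197 and 190 FPKM in shCtrl, from 32942 to 55280 reads per library. All 3 shTPD52 libraries lay above all 3 shCtrl libraries, as in 13.8% of all tested genes. The log2 fold change was 0.31 (SE 0.080, 95% interval 0.12 to 0.50), with a limma adjusted p of 0.0371. The call was lost when any library other than shTPD52 replicate 2 was left out (adjusted p 0.0856 to 0.157), and quantile normalization brought the log2 fold change to 0.09 (adjusted p 0.332). It was also lost with no filter on low genes (adjusted p 0.112), without the intensity trend (0.0613) and after the length and GC correction (0.0661). Scaled to the reads outside mitochondrially encoded genes, the log2 fold change was 0.39.

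Relative to the heavy chains, B2M was close to constant in shTPD52 and varied in shCtrl. The ratio of B2M to the summed heavy chains was 1.52, 1.53 and 1.53 in shTPD52, against 1.19, 1.44 and 1.31 in shCtrl. Each shTPD52 ratio exceeded each shCtrl ratio, and the means differed by a factor of 1.16. The two-sided exact permutation p was 0.1, the smallest that 3 libraries against 3 allow, and 0.15 after adjustment.

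**Figure D2:**
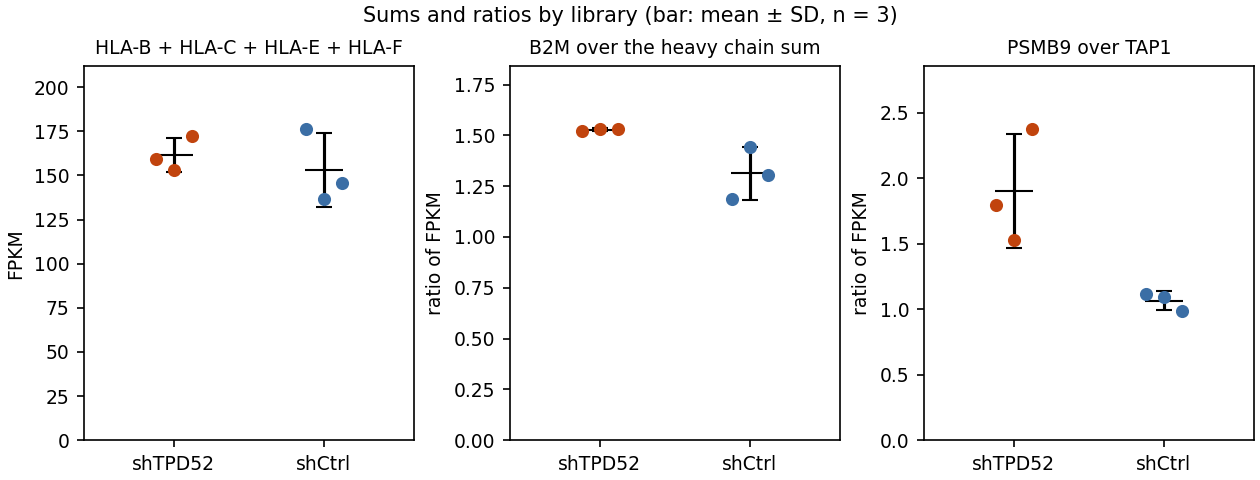
Summed FPKM of the 4 heavy chains (left), B2M FPKM over that sum (middle) and PSMB9 FPKM over TAP1 FPKM (right) in each library, shTPD52 (orange) before shCtrl (blue), with mean ± SD. The sums overlap, whereas the ratio of B2M to heavy chains is 1.52 or more in shTPD52 and 1.44 or less in shCtrl, and the ratio of PSMB9 to TAP1 is 1.53 or more in shTPD52 and 1.12 or less in shCtrl. The separation of PSMB9 over TAP1 follows from that of each of these genes alone.

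The transporter genes did not pass. TAP1 (chr6:32845209-32853978) stood at 6.12, 5.998 and 5.79 FPKM in shTPD52, against 6.79, 6.30 and 7.13 FPKM in shCtrl. The groups did not overlap, with shTPD52 lower, as in 28.3% of all tested genes. The log2 fold change was -0.16 (SE 0.089, 95% interval -0.37 to 0.04, limma adjusted p 0.215). This difference shrank to -0.05 under median-ratio scaling and to 0.00 after correction for gene length and GC content.

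TAP2 (chr6:32821833-32838780), which encodes the other chain of the transporter, was less abundant than TAP1. It stood at 2.07, 2.17 and 1.79 FPKM in shTPD52, against 1.83, 1.98 and 2.02 FPKM in shCtrl. The groups overlapped, and the log2 fold change was 0.04 (SE 0.12, 95% interval -0.24 to 0.31, limma adjusted p 0.844), which became -0.01 without shTPD52 replicate 2. A gene annotated on the same strand covers 32.3% of the exon bases of TAP2, which makes its level uncertain, while TAP1 and TAP2 share only 58.3% of aligned coding bases.

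TAPBP (chr6:33299694-33314387) has no exon base in common with another gene. It stood at 40.5, 38.1 and 36.8 FPKM in shTPD52, against 29.5, 31.8 and 31.1 FPKM in shCtrl, from 4914 to 7135 reads per library. All shTPD52 libraries lay above all shCtrl libraries, as in 13.8% of all tested genes. The log2 fold change was 0.32 (SE 0.076, 95% interval 0.14 to 0.49), with a limma adjusted p of 0.0303. As for B2M, the call was kept without shTPD52 replicate 2 and lost without any other library (adjusted p 0.0505 to 0.121), but here it held under each rescaling, at 0.33 with quantile normalization and 0.51 after the length and GC correction. With no filter the adjusted p was 0.0670 and without the intensity trend 0.0520.

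The order of levels was nearly the same in both groups. B2M came first, then HLA-C, HLA-B, and after a wide gap TAP1, TAP2, HLA-F and NLRC5. TAPBP and HLA-E, which lie between HLA-B and TAP1, changed places. TAPBP exceeded HLA-E in each shTPD52 library and was below it in each shCtrl library. Within either group the ranges of neighbouring genes in this order did not overlap, although the levels of HLA-B, HLA-F, TAP1 and TAP2 carry the uncertainty of shared exon bases.

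NLRC5 (chr16:56989485-57083531) lay under the filter of a mean of 1 FPKM and was added to the fit alone. It stood at 0.749, 0.843 and 0.576 FPKM in shTPD52, against 0.791, 0.760 and 0.830 FPKM in shCtrl, from 274 to 381 reads per library. The groups overlapped, since shTPD52 held both the highest and the lowest library. The log2 fold change was -0.09 (SE 0.15, 95% interval -0.44 to 0.27, limma adjusted p 0.702), and it turned to 0.29 once trends on gene length and GC content were removed and to 0.0019 without shTPD52 replicate 3.

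**Figure D3:**
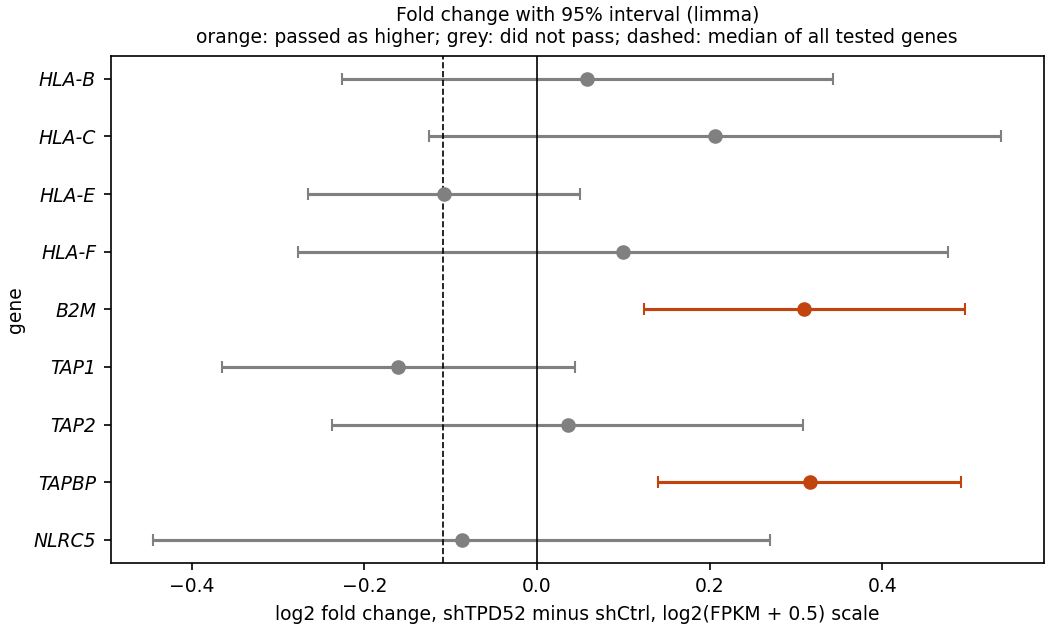
Log2 fold change (shTPD52 minus shCtrl, log2(FPKM + 0.5) scale, horizontal axis) of the 9 genes with the 95% interval from limma; the dashed line is the median of all tested genes, -0.11. The intervals of B2M and TAPBP lie above 0, and those of the other 7 genes include 0.

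Genes that act before the transporter, in the making of peptides, rose in part. The interferon-inducible immunoproteasome subunits and the PA28 activator formed a list of 5, of which 4 rose, 0 fell and 1 did not pass. Over all tested genes 5.63% passed as higher. The median log2 fold change of the list was 0.60. PSMB10, which replaces a catalytic subunit of the standard proteasome, stood at 12.3, 8.50 and 10.9 FPKM in shTPD52, against 5.81, 6.50 and 6.15 FPKM in shCtrl (log2 fold change 0.72, SE 0.13, limma adjusted p 0.0170). A gene annotated on the same strand covers 34.8% of its exon bases, which makes its level uncertain. PSME1, the PA28 alpha chain, averaged 126 ± 11.04 FPKM in shTPD52 and 83.0 ± 5.87 FPKM in shCtrl (SD, n = 3 each), which is 0.60 on the log2 scale (adjusted p 0.0116 in limma).

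PSMB9, a further catalytic subunit, stood at 10.96, 9.17 and 13.8 FPKM in shTPD52, against 7.58, 6.90 and 7.03 FPKM in shCtrl (log2 fold change 0.61, SE 0.14, limma adjusted p 0.0283). PSME2, the PA28 beta chain and the remaining gene of the list to pass, differed by 0.37 in log2 (adjusted p 0.0353 in limma). PSMB8, with 20.6% of its exon bases in exons of opposite-strand genes, differed by 0.36 in log2, with an adjusted p of 0.0778 in limma. In all 5 genes every shTPD52 library lay above every shCtrl library, as in 13.8% of all tested genes. Leaving out 1 library gave between 0 and 5 passing genes, with 0 without shTPD52 replicate 1 or shCtrl replicate 1 or 3, 1 without shCtrl replicate 2, 2 without shTPD52 replicate 3 and 5 without shTPD52 replicate 2, while the median stayed between 0.46 and 0.67. With no filter 1 gene of the list passed.

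TAP1 and PSMB9 are read away from each other from RefSeq starts with 487 bases between them. In the GENCODE annotation the TAP1 span lies within that of PSMB9. Of the pair PSMB9 rose while TAP1 did not pass. The ratio of PSMB9 to TAP1, a value chosen after the data were seen, was 1.79, 1.53 and 2.38 in shTPD52, against 1.12, 1.10 and 0.985 in shCtrl. The means differed by a factor of 1.78. Every shTPD52 library lay above every shCtrl library in PSMB9 and below every shCtrl library in TAP1, so the ratios could not overlap. The two-sided exact permutation p was therefore bound to be 0.1, the smallest possible (0.15 after adjustment over the 3 values), and adds nothing to the values of the genes themselves. PSMB8-AS1 shares exon bases with both genes, 9.49% of those of TAP1 and 5.66% of those of PSMB9.

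Of the 3 constitutive catalytic subunits, which the immunoproteasome subunits replace, 1 rose and 2 did not pass, where 5.63% of all tested genes passed as higher. PSMB7, the counterpart of PSMB10, averaged 172 ± 22.6 FPKM in shTPD52 and 129 ± 3.95 FPKM in shCtrl (SD, n = 3 each; log2 fold change 0.41, limma adjusted p 0.0370). Of the libraries left out in turn, shTPD52 replicate 2 was the one whose removal kept the call (for the others the adjusted p was 0.0928 to 0.139). PSMB5 had a log2 fold change of 0.04 and PSMB6 one of 0.00.

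Among 10 genes of peptide trimming and class I folding, 3 rose, 0 fell and 7 did not pass, and the median log2 fold change was 0.00. Over all tested genes 5.63% passed as higher and 12.7% as lower. The 3 that rose encode chaperones of the endoplasmic reticulum. PDIA3, the isomerase of the loading complex, averaged 165 ± 1.12 FPKM in shTPD52 and 133 ± 6.80 FPKM in shCtrl (log2 fold change 0.31, limma adjusted p 0.0268). CALR, calreticulin, averaged 363 ± 32.4 FPKM in shTPD52 and 286 ± 3.69 FPKM in shCtrl (0.34, limma adjusted p 0.0354). HSPA5, the general chaperone BiP, averaged 68.7 ± 1.97 FPKM in shTPD52 and 57.3 ± 2.42 FPKM in shCtrl (0.26, limma adjusted p 0.0425; SD, n = 3 each for these genes).

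The aminopeptidases that trim peptides did not pass, with log2 fold changes of -0.12 for ERAP1 and 0.10 for ERAP2, nor did TAPBPL, a second peptide editor (0.28, limma adjusted p 0.0591), or CANX, calnexin (-0.33, limma adjusted p 0.156). No gene of this list passed when a library other than shTPD52 replicate 2 was left out, and without that library 4 rose and 3 fell. The number that rose was also 0 with no filter and without the intensity trend. Quantile normalization left CALR at 0.02.

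**Figure D4:**
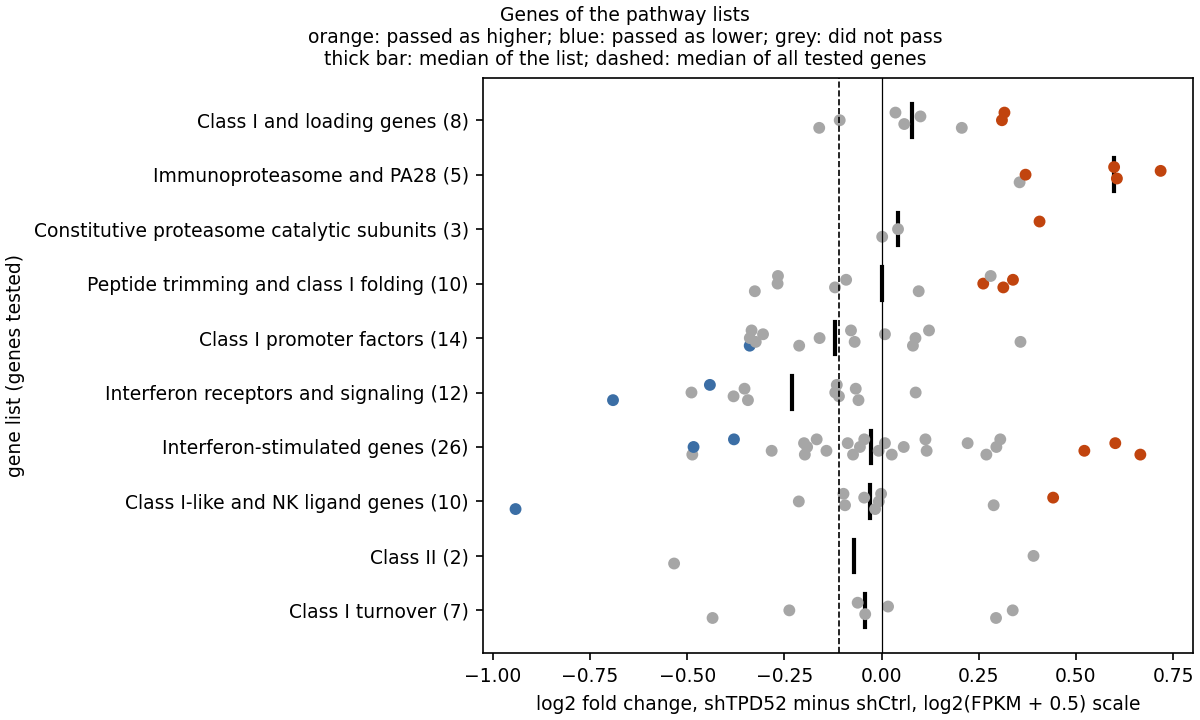
Log2 fold change (shTPD52 minus shCtrl, horizontal axis) of every tested gene in the class I genes and 9 related lists, 1 point per gene, coloured by whether it passed as higher (orange), as lower (blue) or not (grey), with the median of each list as a bar and that of all tested genes, -0.11, dashed. All 5 immunoproteasome and PA28 genes lie at 0.36 or above, and the interferon receptor and signaling list has the lowest median, -0.23.

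Among factors known to act on these promoters a single gene passed, as lower. Of 16 class I promoter factors, 14 were tested, and 0 rose, 1 fell and 13 did not pass, with a median of -0.12. Over all tested genes 5.63% passed as higher and 12.7% as lower, and the median was -0.11. RELA, a kappaB-binding factor, averaged 22.4 ± 2.40 FPKM in shTPD52 and 28.4 ± 1.18 FPKM in shCtrl (SD, n = 3 each; log2 fold change -0.34, limma adjusted p 0.0459), and passed in 7 of 17 other processings. Median-ratio scaling, the length and GC correction and the rescaling to reads outside mitochondrially encoded genes were among those that lost it, as was leaving out any library other than shTPD52 replicate 2. IRF1, which binds the interferon element, differed by 0.09 in log2 (adjusted p 0.598 in limma), and RFX5, of the complex that NLRC5 joins, by -0.30 (adjusted p 0.0743 in limma).

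Of 12 tested genes for interferon receptors and their signaling, 0 rose, 2 fell and 10 did not pass, with a median of -0.23. This share was near that of all tested genes, of which 18.3% passed and 12.7% passed as lower. STAT2, which carries the type I interferon signal to the nucleus, stood at 9.94, 12.4 and 9.36 FPKM in shTPD52, against 16.6, 17.2 and 17.9 FPKM in shCtrl (log2 fold change -0.69, SE 0.11, limma adjusted p 0.0128). TYK2, a kinase of the type I receptor, averaged 9.66 ± 0.315 FPKM in shTPD52 and 13.3 ± 0.901 FPKM in shCtrl (SD, n = 3 each; -0.44, limma adjusted p 0.0180). Both were lost without shTPD52 replicate 1, without shCtrl replicate 1 and without shCtrl replicate 3, and TYK2 also under median-ratio scaling (-0.32) and after removing trends on length and GC content (-0.16). JAK1, a kinase of several interferon receptors, did not pass (-0.49, limma adjusted p 0.0578).

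Most interferon-stimulated genes did not pass. Of 42 genes, 26 were tested, 3 rose, 2 fell and 21 did not pass, a share near the 18.3% of all tested genes that passed, and their median was -0.03. BST2, tetherin, averaged 398 ± 69.7 FPKM in shTPD52 and 248 ± 8.06 FPKM in shCtrl (log2 fold change 0.67, limma adjusted p 0.0175). IFITM1, an antiviral membrane protein, averaged 3.39 ± 0.302 FPKM in shTPD52 and 2.06 ± 0.153 FPKM in shCtrl (0.60, limma adjusted p 0.0171). UBE2L6, the conjugating enzyme for ISG15, averaged 64.9 ± 3.39 FPKM in shTPD52 and 84.5 ± 1.37 FPKM in shCtrl (-0.38, limma adjusted p 0.0176; SD, n = 3 each for these genes).

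The other two genes to pass, named after their values were seen, were IFI35, which rose (0.52, limma adjusted p 0.020), and PML, which fell (-0.48, limma adjusted p 0.0178). No gene of this list passed without shTPD52 replicate 1, shCtrl replicate 1 or shCtrl replicate 3, and with no filter 0 rose and 2 fell. BST2, IFITM1 and UBE2L6 each lost their calls without shTPD52 replicate 1 and without any single shCtrl library.

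Most ligands that natural killer and T cells read beside class I did not pass. Of 10 tested class I-like and natural killer ligand genes, 1 rose, 1 fell and 8 did not pass, again near the 18.3% of all tested genes that passed. ULBP2, a ligand of the activating receptor NKG2D, stood at 3.68, 3.61 and 4.41 FPKM in shTPD52, against 7.87, 7.98 and 7.92 FPKM in shCtrl (log2 fold change -0.94, SE 0.10, limma adjusted p 0.00490). It passed in all 17 other processings. ULBP3, of the same family, averaged 4.33 ± 0.422 FPKM in shTPD52 and 3.05 ± 0.135 FPKM in shCtrl (SD, n = 3 each; 0.44, limma adjusted p 0.0302), and lost its call without shTPD52 replicate 1 and without any single shCtrl library.

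Of 9 class II genes only HLA-DMA and HLA-DMB, the peptide exchangers of class II loading, reached the filter, and neither passed (0.39, limma adjusted p 0.0909, and -0.53, limma adjusted p 0.0540). Of 7 tested genes of class I turnover, 0 rose and 0 fell, where 18.3% of all tested genes passed. Their log2 fold changes ran from -0.43 to 0.34. In 3 of the 7 the groups did not overlap, near the 42.0% of all tested genes.

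The share of genes that passed in the MHC region was near that of all tested genes. Between 28 and 34 Mb of chromosome 6, 120 genes other than the 9 were tested, and 6 rose, 16 fell and 98 did not pass, with a median of -0.09. Among all tested genes 5.63% passed as higher and 12.7% as lower. SKIC2, a helicase of RNA decay, averaged 8.14 ± 0.267 FPKM in shTPD52 and 11.9 ± 0.129 FPKM in shCtrl (log2 fold change -0.52, limma adjusted p 0.0110). SLC44A4, a membrane transporter, averaged 3.05 ± 0.318 FPKM in shTPD52 and 1.56 ± 0.182 FPKM in shCtrl (SD, n = 3 each for these genes; 0.79, limma adjusted p 0.0126). Both lost their calls without shTPD52 replicate 1 or without shCtrl replicate 3, and SKIC2 also without shCtrl replicate 1 (adjusted p 0.0563 to 0.0710).

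The genes whose levels over the 6 libraries ran closest to the heavy chains were GABARAPL2, ZNF48, PPP2R2D, CRYBB2P1 and P4HTM. Likeness was the mean absolute difference, in log2 units, between a gene's centred profile and the mean centred profile of the 4 heavy chains, over 6244 genes of at least 5 FPKM. It was 0.0243 for GABARAPL2 and 0.0297 for P4HTM, against a median of 0.166. GABARAPL2 stood at 21.1, 21.8 and 23.0 FPKM in shTPD52, against 22.6, 18.7 and 19.9 FPKM in shCtrl, with its lowest value in shCtrl replicate 2, where HLA-B, HLA-C and HLA-F were lowest as well but HLA-E was not. None of the 5 passed.

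**Figure D5:**
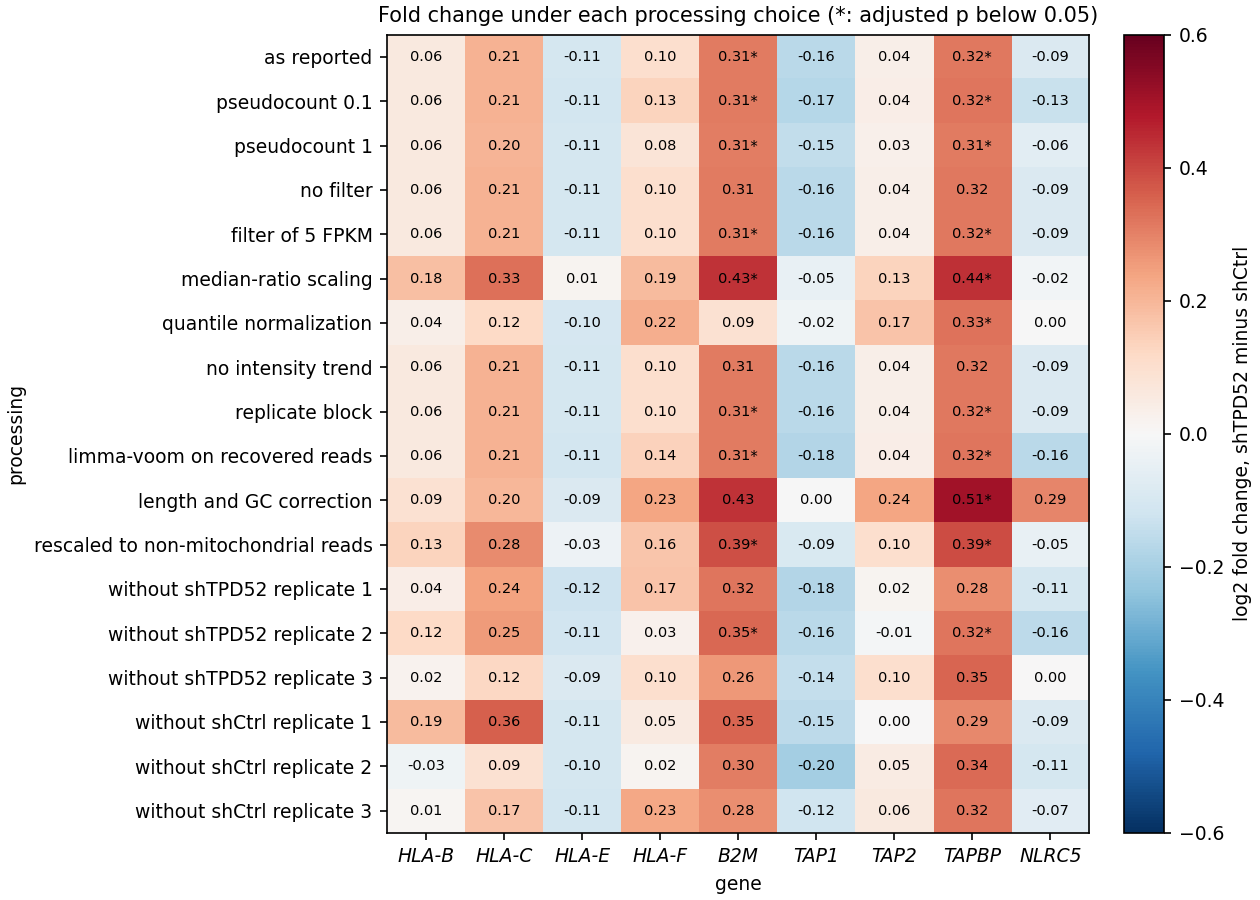
Log2 fold change (shTPD52 minus shCtrl, colour and numbers) of the 9 genes (columns) as reported and under 17 other processings (lines), with an asterisk where the limma adjusted p is below 0.05. B2M carries an asterisk in 8 of the 17 and TAPBP in 10, and no other gene in any.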

How the data were processed

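RNA of 6 NCI-H295R libraries was analysed; groups and replicate numbers were taken from the sample titles. The table holds FPKM computed by the authors; per the submitters' processing notes, HISAT2 2.2.1, featureCounts 2.0.3 and GRCh38 were used, with roles not stated. Whole reads for each gene were recovered from the deposited FPKM with GENCODE release 29 exon lengths, or a searched length, within 0.02 reads of a whole number. Between 25.9% and 29.4% of counts from 1 to 20 were odd, the pattern counting of both mates would leave. A floor of 3 reads is 0.0391 to 0.0508 FPKM at 2 kb and covers counting error only.

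The 12782 genes averaging 1 FPKM or more were tested with limma 3.58.1 in R 4.3.3 on log2(FPKM + 0.5), two-sided, with an intensity trend and Benjamini-Hochberg adjustment over all of them at 0.05. NLRC5 and TPD52, under the filter, were each added to the fit alone. Checks on simulated data preceded the fits. Of all tested genes 720 rose and 1621 fell (18.3% passed); median-ratio scaling gave 1083 and 1038, and quantile normalization 1152 and 1188. Median-ratio scaling moved the median log2 fold change of all genes to 0.00, against -0.11 as deposited, so a value near -0.11 is near that median. The 9 genes and the lists were chosen with earlier results of these data known. In each list the 3 passing genes with the smallest p were named, together with the 5 genes most like the heavy chains; IFI35 and PML were named because they passed, and other genes for their role. Some genes, including 1 that this rule selects, are not reported here. Positions come from GENCODE release 29, promoters from RefSeq GRCh38.p14. The planned protein comparison was replaced by coding sequences, as no protein table was used here. Leaving out each library, the rescaling to reads outside mitochondrially encoded genes (added after seeing the data) and the other alternatives are given in the closing section.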

Additional observations from a re-analysis of the deposited data

How the results depend on the processing

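B2M and TAPBP kept their direction in all 17 alternatives, and B2M passed in 8 and TAPBP in 10. The number of the 9 genes that passed as higher, 2 as reported, was 0 with no filter and without the intensity trend, 1 with quantile normalization and with the length and GC correction, and 0 to 2 when 1 library was left out. Among all genes, 720 passed as higher; this was 177 with no filter, 1083 with median-ratio scaling, 1152 with quantile normalization, 1282 with the length and GC correction, and 48 to 1616 with 1 library left out, the most without shTPD52 replicate 2. The 1621 that passed as lower were 354 with no filter, 1038 with median-ratio scaling, and 39 to 4209 with 1 library left out. The causes were not tested. Signs turned, always in genes that did not pass, for HLA-E with median-ratio scaling (0.0143) and NLRC5 with the length and GC correction (0.29). They also turned when 1 library was left out, over which HLA-B ran from -0.0255 (without shCtrl replicate 2) to 0.189, TAP2 from -0.0108 (without shTPD52 replicate 2) to 0.102, NLRC5 from -0.158 to 0.0019 (without shTPD52 replicate 3), ZNF48 from -0.0549 to 0.101, CRYBB2P1 from -0.0261 to 0.0604 and P4HTM from -0.0552 to 0.128. Same-numbered libraries deviated together with correlations of 0.045, 0.248 and 0.022, and the third shTPD52 library correlated best with shCtrl replicate 1, so the numbers were not taken to pair the libraries; with the replicate number as a block, 2 of the 9 genes passed as higher, and 906 and 2158 genes passed in all. The heavy chain sum kept a ratio of 1.00 to 1.15, B2M over the sum 1.11 to 1.23, and PSMB9 over TAP1 1.56 to 1.96. HLA-F rests on 139 to 254 reads and NLRC5 on 274 to 381, which limits their precision.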
